A study of Mus musculus with 14 samples.

Results

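Transcripts of 7 peripheral myelin genes and of the transcription factor *Egr2* were followed in plexiform neurofibromas (PNs) and control dorsal root ganglia (DRGs) of mice. The 8 genes were *Mbp*, *Pmp22*, *Prx*, *Mag*, *Mal*, *Pmp2*, *Gjb1*, and *Egr2*, taken by their symbols from a table of read counts for 24062 genes, and they were chosen with earlier results of these data known. All 8 passed the filter on low counts in each comparison. Bulk RNA-seq was performed on whole, undissociated tissue of 14 mice, of which 3 gave control DRGs and nerves, 5 a slow-growing PN, and 6 a fast-growing PN. Controls carried *Nf1* with both alleles floxed and no Cre (labelled Nf1fl/fl). PN mice carried DhhCre;Nf1fl/fl, so the floxed *Nf1* alleles were common to all 3 groups. All mice were of a mixed C57BL/6, I-129, and FVBN background, received no drug, and were 9 months old according to the methods of the study. PNs were classed by MRI at 7 and 9 months: growth of more than 35 mm3 in 2 months was called fast, and a change in volume of less than 5 mm3 was called slow. *Dhh-Cre* recombines in the Schwann cell (SC) lineage, and the other cells of a PN keep functional *Nf1*.

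Myelinating SCs wrap 1 axon each and compact their membrane into myelin, which insulates the axon and speeds conduction. *Egr2* (also known as Krox20) encodes the zinc finger transcription factor that SCs need to start and maintain the myelin program, together with Sox10. Its known targets include genes of compact myelin, of the noncompact regions of the sheath, and of myelin lipid synthesis, and several of these genes are mutated in inherited demyelinating neuropathies.

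The genes lie on 7 chromosomes of mm10. *Mbp* spans chr18:82475146-82585637 on the plus strand and *Pmp22* chr11:63128982-63159547 on the plus strand. *Prx* spans chr7:27499324-27520214 on the plus strand and shares exon sequence with the antisense gene *Gm15541*. The strand setting of the counting was not given in the sources used here, so reads of these overlapping genes may not be separable. *Mag* spans chr7:30899176-30914873 on the minus strand, *Mal* chr2:127633226-127656695 on the minus strand, and *Pmp2* chr3:10179851-10183929 on the minus strand. The annotated locus *Gm37389* shares exons with *Pmp2* on the same strand. *Gjb1* spans chrX:101376378-101385629 on the plus strand and *Egr2* chr10:67535475-67542188 on the plus strand.

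The sequences upstream of 4 of these genes are shown because most of the myelin genes varied together across libraries and because *Egr2* binds DNA directly. They are RefSeq windows of 250 bases before an annotated transcript start (build GRCm38.p6), written 5′ to 3′ on the strand of the gene. Both strands were searched for GTGGGNG, taken as the core of an EGR-type site, and for ACAAAG, taken as a SOX-type word. Capitals mark these letters or their reverse complement, and the 2 words do not overlap in any of the windows printed.

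Prx, chr7:27499074-27499323, plus strand: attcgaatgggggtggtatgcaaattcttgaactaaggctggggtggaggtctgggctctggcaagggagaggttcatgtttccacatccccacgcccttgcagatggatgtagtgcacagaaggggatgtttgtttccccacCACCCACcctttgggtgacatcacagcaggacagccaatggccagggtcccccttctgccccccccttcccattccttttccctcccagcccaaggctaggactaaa

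Mag, chr7:30914923-30915172, minus strand: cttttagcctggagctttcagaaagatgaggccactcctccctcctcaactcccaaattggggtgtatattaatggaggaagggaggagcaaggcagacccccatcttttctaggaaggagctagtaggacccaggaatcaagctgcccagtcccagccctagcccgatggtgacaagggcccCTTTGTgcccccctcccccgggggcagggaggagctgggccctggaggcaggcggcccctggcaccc

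Gjb1, chrX:101383482-101383731, plus strand: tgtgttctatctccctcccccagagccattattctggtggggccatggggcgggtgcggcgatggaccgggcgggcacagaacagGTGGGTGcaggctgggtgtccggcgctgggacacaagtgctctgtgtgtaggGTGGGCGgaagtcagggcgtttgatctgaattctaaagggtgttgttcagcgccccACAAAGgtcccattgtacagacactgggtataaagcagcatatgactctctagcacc

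Egr2, chr10:67535249-67535498, plus strand: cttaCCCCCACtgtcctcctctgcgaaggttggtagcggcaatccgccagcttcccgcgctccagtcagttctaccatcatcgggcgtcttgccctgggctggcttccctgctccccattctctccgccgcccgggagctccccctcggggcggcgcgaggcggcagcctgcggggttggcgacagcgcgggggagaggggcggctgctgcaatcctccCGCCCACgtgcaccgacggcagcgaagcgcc

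The *Prx* window held 1 EGR core, CACCCAC, which begins 107 bases before the start. The *Gjb1* window held GTGGGTG at 165 bases, GTGGGCG at 113 bases, and ACAAAG at 57 bases before the start. The *Mag* window held CTTTGT at 67 bases, and the *Egr2* window held CCCCCAC at 246 bases and CGCCCAC at 31 bases before the start. Other windows of these genes differ: of 3 windows of *Mag*, 1 held an EGR core (GTGGGGG) and 2 the SOX word, of 4 of *Gjb1*, 1 held an EGR core and 2 the SOX word, and of 5 of *Egr2*, 1 held an EGR core. The last 24 bases of the *Egr2* window are annotated as exon in GENCODE M21. None of the 4 windows of *Pmp22* nor the 1 window of *Mal* held either word, and *Mbp* and *Pmp2* were not matched in the table. Of 32851 upstream windows of this length, 28.1% held the EGR core and 16.5% held the SOX word. A match of these letters is a description of the sequence and not a binding site.

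Counts on genes ranged from 9596773 to 17594164 per library, and the median was 10627393 for controls, 11707116 for slow-growing PNs, and 14459516 for fast-growing PNs. The 8 genes together took 0.361% to 1.71% of these counts. Each library is 1 mouse, and an effect of how libraries were prepared cannot be told apart from one of the tissue. Control DRG3 stood apart from the other controls: its *Mbp* level was 3402 CPM (CPM, counts scaled to a common library size by TMM) against 1192 in DRG4 and 1077 in DRG5. Its tissue markers differed too, with summed CPM of 952 against 407 and 336 for pan-SC markers, 284 against 1615 and 1452 for macrophages and leukocytes, and 11043 against 25090 and 39204 for skeletal muscle. *Nf1*, on chromosome 11, was at 229, 154, and 131 CPM in the controls and at 224 to 293 CPM in PNs. These counts pool floxed with intact exons, so *Nf1* does not check the labels. In bulk tissue, fewer cells of a type and less RNA per cell cannot be told apart.

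Scaled per kilobase of annotated exon, *Pmp22* was the most abundant of the 8 in every group, at 1584 ± 1078 RPKM for controls, 2883 ± 1039 for slow-growing PNs, and 1651 ± 445 for fast-growing PNs (SD with n = 3, 5, and 6). *Mbp* was next, at 223 ± 155, 367 ± 198, and 181 ± 45.2 RPKM in the same groups. In controls the order went on with *Mal* (72.6 ± 48.7 RPKM), *Prx* (54.7 ± 39.9), *Pmp2* (24.7 ± 14.9), *Egr2* (16.7 ± 6.96), *Gjb1* (6.69 ± 5.90), and *Mag* (3.40 ± 1.30). From *Mbp* down to *Mag*, neighbours in this order differed by less than the SD of the higher gene, except *Egr2* and *Gjb1*. In fast-growing PNs *Pmp2* stood above *Mal* and *Prx*, at 136 ± 60.3 RPKM against 83.3 ± 17.0 and 37.8 ± 7.97. The length used is the union of all annotated exons of a gene, so a gene with long unused exons reads low on this scale.

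**Figure D1:**
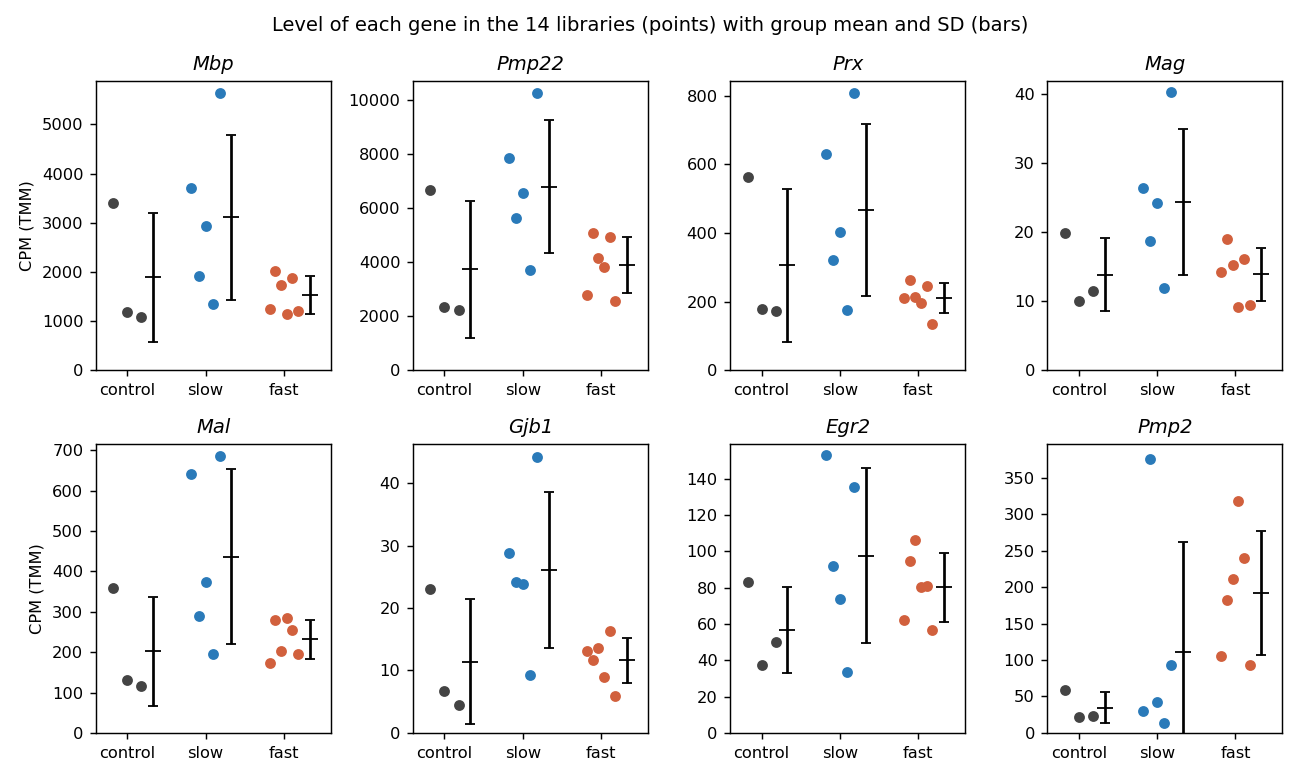
Levels of the 8 genes as TMM-scaled CPM in each library, 1 panel per gene, with the group mean and SD as bars (3 control, 5 slow-growing, and 6 fast-growing libraries). *Pmp2* is above all controls in all 6 fast-growing PNs, while for the other genes the groups overlap. Where a mean minus its SD falls below 0, as for *Pmp2* in slow-growing PNs, the bar is not drawn below the axis.

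The structural proteins of compact myelin were considered first. *Mbp*, myelin basic protein, holds the cytoplasmic faces of the membrane together, and it measured 3402, 1192, and 1077 CPM in the controls. In slow-growing PNs its level was 3704, 1924, 2934, 1343, and 5628 CPM in PNs 1079, 1198A, 1202, 1203, and 1206. Fast-growing PNs ranged from 1133 to 2017 CPM with a median of 1494. Slow-growing PN 1206 was the highest library and DRG5 the lowest, and the 3 groups overlapped.

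*Pmp22* encodes a tetraspan membrane protein of compact myelin whose duplication causes a common inherited neuropathy. It measured 6658, 2319, and 2211 CPM in controls and 7832, 5629, 6535, 3703, and 10239 CPM in the slow-growing PNs, in the same order. In fast-growing PNs it ranged from 2571 to 5064 CPM, with a median of 3997. Only 1 slow-growing PN, 1203, lay within the range of the fast-growing PNs, while DRG3 lay among the slow-growing PNs and the other controls below every PN.

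*Mal*, a raft-associated proteolipid of the myelin membrane, measured 358, 131, and 116 CPM in controls. Its levels in the slow-growing PNs were 640, 289, 372, 195, and 685 CPM, and fast-growing PNs ranged from 173 to 284 CPM with a median of 228. Again PN 1203 was the slow-growing library that fell among the fast-growing ones.

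*Prx*, *Mag*, and *Gjb1* act in the noncompact and axon-facing parts of the sheath. *Prx* encodes periaxin, which links the outer SC membrane to the dystroglycan complex, and it measured 562, 180, and 174 CPM in controls. Slow-growing PNs were at 631, 320, 402, 175, and 807 CPM, and fast-growing PNs ranged from 136 to 264 CPM with a median of 213. The lowest of all 14 libraries was fast-growing PN 1216.

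*Mag*, myelin-associated glycoprotein of the axon-facing membrane, was low: 19.9, 10.1, and 11.5 CPM in controls and 26.4, 18.7, 24.3, 11.9, and 40.3 CPM in slow-growing PNs. It ranged from 9.23 to 19.0 CPM in fast-growing PNs, with a median of 14.7. These levels rest on 109 to 418 reads per library, so the counting error is small beside the spread between mice. *Gjb1* encodes connexin 32, which forms channels across the layers of the sheath. It measured 23.0, 6.75, and 4.55 CPM in controls and 28.7, 24.2, 23.9, 9.22, and 44.2 CPM in slow-growing PNs. In fast-growing PNs it ranged from 5.98 to 16.3 CPM, with a median of 12.4. For both genes 1206 was the highest library, and slow-growing PN 1203 was the only one of its group inside the range of the fast-growing PNs of *Gjb1*.

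*Pmp2*, a fatty acid binding protein of compact myelin, had a different order of libraries. It measured 59.0, 22.1, and 23.2 CPM in controls. In the slow-growing PNs it was at 29.9, 376, 42.9, 13.9, and 92.6 CPM, a 27.1-fold range between PNs 1198A and 1203. The fast-growing PNs were at 106, 183, 212, 319, 240, and 92.9 CPM in PNs 1053, 1071, 1179, 1191, 1214, and 1216. All 6 fast-growing PNs lay above the highest control, whereas slow-growing PNs included both the highest and the lowest of the 14 libraries.

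*Egr2* measured 83.0, 37.2, and 50.2 CPM in controls and 153, 92.1, 73.4, 33.3, and 135 CPM in slow-growing PNs. Fast-growing PNs ranged from 56.4 to 106 CPM with a median of 80.4. The slow-growing PNs again held both extremes, with 1079 the highest and 1203 the lowest library, and the fast-growing PNs lay wholly within their range.

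In PNs as a group of 11, none of the myelin genes nor *Egr2* was called changed against the 3 controls. The quasi-likelihood test of edgeR with Benjamini-Hochberg adjustment called 0 of 8 at an adjusted p under 0.05, whereas 26.3% of 16283 genes were called in either direction and 12.9% were called higher. At an unadjusted p under 0.05, 1 of the 8 passed (*Pmp2*), against 38.9% of all genes, and DESeq2 also called 1, *Pmp2*, with 31.8% of all genes called. Without PN 1203 edgeR called *Pmp2* as well, beside 29.4% of all genes. Fitted log2 fold changes were positive for all 8, with a median of 0.56 against 0.10 over all genes. *Pmp2* had the largest, 2.16 (SE 0.88, adjusted p = 0.0826, edgeR), and 8 of 11 PNs lay above all controls. With muscle and fat scores as covariates it was 0.38 (adjusted p = 0.879, edgeR), while the other 7 genes were at 1.10 to 1.84 (adjusted p 0.141 to 0.325, edgeR). The fat score of every control exceeded that of every PN, so this fit cannot separate fat content from group. *Egr2* had a log2 fold change of 0.63 (SE 0.37, adjusted p = 0.231, edgeR). *Prx* and *Mbp* were the smallest, 0.10 (SE 0.52) and 0.25 (SE 0.50), and the fitted value of *Prx* turned negative without DRG4, DRG5, 1079, or 1206, as did that of *Mbp* without DRG5. An exact permutation test of log2(CPM + 1) gave two-sided p values from 0.0797 (*Pmp2*) to 0.827 (*Prx*), where the smallest p this design allows is 0.0027.

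Slow-growing PNs compared with controls also gave 0 of 8 calls, where 11.3% of 15714 genes were called in either direction and 4.12% higher. None of the 8 passed at an unadjusted p under 0.05 in edgeR's test, against 30.3% of all genes. All 8 fitted log2 fold changes were positive and lay between 0.59 (*Prx*) and 1.64 (*Pmp2*), with adjusted p values of 0.206 to 0.498 from edgeR. The value of *Pmp2* rests on PN 1198A, without which it was 0.34; it was 0.43 with muscle and fat scores as covariates and 0.83 with limma voom. *Mal* was at 1.09 (SE 0.54) and *Gjb1* at 1.16 (SE 0.62). Without control DRG3, *Gjb1* passed with a log2 fold change of 2.16 (adjusted p = 0.0482, edgeR), and no other member did, beside 15.3% of all genes.

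In fast-growing PNs, *Pmp2* rose 5.37-fold over controls and was the only 1 of the 8 genes called, in a comparison where 31.4% of 16037 genes were called in either direction and 14.8% higher. Its log2 fold change was 2.43 (SE 0.50, adjusted p = 0.00523, edgeR with Benjamini-Hochberg adjustment). All 6 fast-growing PNs exceeded all 3 controls, which 17.2% of the tested genes did as well, and the exact two-sided permutation p of 0.0119 is the smallest this design allows. With 1 control or fast-growing library left out, the adjusted p of *Pmp2* ranged from 0.00332 to 0.0309. It was 0.0577 in 1 fit of all 3 groups, where, as in all 17 alternative settings, the log2 fold change was 2.19 or more. When scores of skeletal muscle and fat entered the edgeR fit, the adjusted p was 0.530 at a log2 fold change of 4.03, and 0 of all genes passed.

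The other 7 genes did not pass in fast-growing PNs. *Egr2* had a log2 fold change of 0.45 (SE 0.27, adjusted p = 0.240, edgeR), *Mal* of 0.16 (SE 0.34), and *Pmp22* of 0.02 (SE 0.38). *Gjb1* was at -0.02 (SE 0.47), *Mag* at -0.04 (SE 0.28), *Mbp* at -0.34 (SE 0.36), and *Prx* at -0.57 (SE 0.35). These comparisons rest heavily on DRG3: without it, *Mal* was at 0.83 (adjusted p = 0.0198, edgeR) and *Egr2* at 0.80 (adjusted p = 0.0463, edgeR), both called higher with *Pmp2*, so 3 of 8 passed beside 31.9% of all genes. Without it the signs of *Mbp* (0.36), *Prx* (0.18), *Mag* (0.29), and *Gjb1* (0.96) also turned.

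The 2 growth classes were then compared with each other, which uses no control. Fitted levels of 6 myelin genes were lower in fast- than in slow-growing PNs, by 1.75- to 2.25-fold, but none passed the adjusted threshold. edgeR called 0 of 8 genes, where 1.27% of 15465 genes were called in either direction and 0.466% lower. At an unadjusted p under 0.05, 6 of 8 passed, against 20.4% of all genes. *Gjb1* had a log2 difference of -1.17 (SE 0.35, adjusted p = 0.0925, edgeR), *Prx* of -1.15 (SE 0.34, adjusted p = 0.0871, edgeR), and *Mbp* of -1.02 (SE 0.34, adjusted p = 0.119, edgeR). *Mal* was at -0.92 (SE 0.31), *Mag* at -0.81 (SE 0.29), and *Pmp22* at -0.81 (SE 0.28), with adjusted p values of 0.121, 0.149, and 0.136 from edgeR. Exact two-sided permutation p values of these 6 genes were 0.0281 to 0.0476 without adjustment, and the smallest the design allows is 0.0022.

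*Egr2* differed by -0.29 (SE 0.33, adjusted p = 0.638, edgeR; exact permutation p = 0.742) and *Pmp2* by 0.79 (SE 0.73, adjusted p = 0.565, edgeR; exact permutation p = 0.0779). The result depends on the test, on covariates, and on single PNs. With muscle and fat scores in the edgeR fit, the log2 differences of the 6 genes shrank to between -0.46 (*Prx*) and -0.24 (*Mag*), and that of *Pmp2* was 2.598 (adjusted p = 0.249, edgeR). DESeq2, which called 10.2% of all genes here, called 5 of the 8: *Mbp*, *Pmp22*, *Prx*, *Mal*, and *Gjb1*. Without slow-growing PN 1203, edgeR called 4, *Mbp*, *Prx*, *Mal*, and *Gjb1*, beside 3.7% of all genes. Without 1198A it called *Pmp2* higher in fast-growing PNs, with a log2 difference of 2.10 (adjusted p = 0.0405, edgeR), beside 7.65% of all genes.

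**Figure D2:**
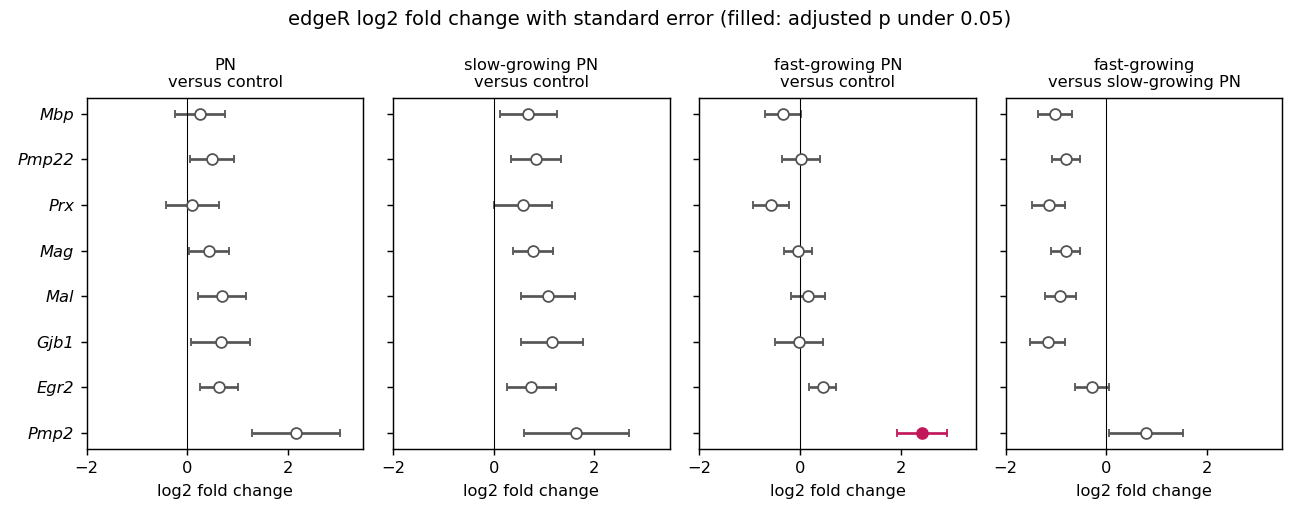
Fitted log2 fold changes of the 8 genes with 1 SE either way in the 4 comparisons, from edgeR, 1 panel per comparison and 1 line per gene, with filled points for an adjusted p under 0.05. *Pmp2* at 2.43 in fast-growing PNs versus controls is the only value that passed, and 6 myelin genes lie between -0.81 and -1.17 in fast- versus slow-growing PNs without passing.

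Markers of other cell types were measured in the same groups. Summed CPM of 10 skeletal muscle markers was 11043 to 39204 in controls, 64.7 to 12882 in the slow-growing class, and 377 to 7663 in the fast-growing class. That of 10 fat markers was 3793 to 5532, 15.7 to 3064, and 16.9 to 269 CPM, in the same order. For 10 neuronal markers the sums were 1527 to 5662, 2593 to 12873, and 24.97 to 7068 CPM, with the lowest in PN 1191. For 7 fibroblast markers the ranges were 2010 to 3837, 1272 to 6030, and 6345 to 12201 CPM, in the same order. For 7 markers of macrophages and leukocytes they were 284 to 1615, 123 to 1133, and 572 to 1796 CPM, and for 4 endothelial markers 264 to 308, 71.9 to 348, and 102 to 274 CPM. All groups overlap in the sums of neuronal, macrophage, and endothelial markers. Controls and slow-growing PNs also overlap in those of muscle and fibroblasts, and the growth classes in those of muscle and fat. The part of these differences in the levels of the myelin genes was not tested. The fit with muscle and fat scores cannot decide it against controls, because the fat sum of every control lay above that of every PN.

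Central myelin shares *Mbp*, *Mag*, *Mal*, and *Gjb1* with peripheral myelin, so markers of oligodendrocytes, which make it, were measured. The sum of 8 such markers was 4.81 to 12.2 CPM over all 14 libraries. *Opalin* had 0 reads in 13 libraries, *Mog* in 9, *Olig2* in 7, *Olig1* in 6, and *Mobp* and *Hapln2* in 1 each. *Myrf* (1.82 to 4.75 CPM) and *Ermn* (0.605 to 4.47 CPM) were read in all 14 libraries.

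The summed CPM of 6 pan-SC markers, *Sox10* and *Erbb3* among them, was 336 to 952 for controls, 1009 to 2101 for slow-growing PNs, and 1627 to 1872 for fast-growing PNs. Their mean log2 level exceeded that of the highest control in 10 of 11 PNs, with PN 1203 at 6.44 against 6.54 in DRG3. Relative to the mean log2 level of these markers, *Mbp* averaged 5.03 ± 0.15 for controls, 4.24 ± 0.79 for slow-growing PNs, and 2.95 ± 0.31 for fast-growing PNs (SD with n = 3, 5, and 6). On this scale 7 of the 8 genes lay below every control in all 6 fast-growing PNs, with *Pmp2* the exception. The same held for 78.7% of all tested genes, so a lower level relative to SC markers was not particular to myelin genes.

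The 8 genes were next compared library by library. *Mbp*, *Pmp22*, *Prx*, *Mag*, *Mal*, and *Gjb1* kept nearly the same order of libraries, with Pearson's r of log2(CPM + 1) between 0.84 and 0.97 for their 15 pairs over 14 libraries, and between 0.82 and 0.97 over the 11 PNs. *Pmp2* had r between -0.01 and 0.50 with the other 7 genes over 14 libraries, and between -0.23 and 0.33 over PNs. The points share tissue makeup and scaling, and these values are given as a description.

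**Figure D3:**
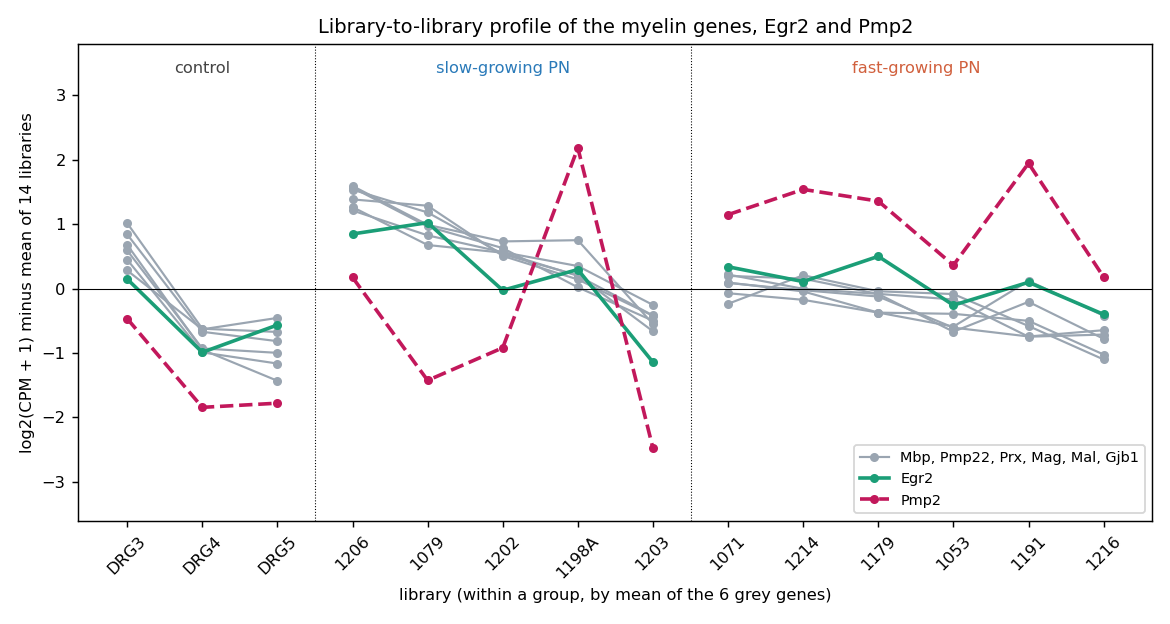
Log2(CPM + 1) of each gene minus its mean over the 14 libraries, with libraries on the horizontal axis grouped as control, slow growing, and fast growing and ordered within a group by the mean of the 6 genes in grey. The lines of 6 myelin genes rise and fall together, with 1206 and 1079 high, and *Pmp2* follows another course with its highest value in 1198A.

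Whether *Egr2* transcript tracked the myelin genes was asked across the 11 PNs. Pearson's r with *Egr2* was 0.75 for *Prx* (permutation p = 0.0080), 0.74 for *Mal* (p = 0.0084, permutation), 0.71 for *Pmp22* (p = 0.0133, permutation), and 0.71 for *Mbp* (p = 0.0153, permutation). It was 0.69 for *Gjb1* (permutation p = 0.0170) and 0.68 for *Mag* (permutation p = 0.0215). Over the 7 relations tested, these 6 had Benjamini-Hochberg adjusted permutation p values of 0.0239 to 0.0250. Of 15457 other genes, 399 (2.58%) had an r with *Egr2* at or above the lowest of the 6. Spearman's rho for the same genes was 0.69 to 0.76, with raw permutation p values of 0.0082 to 0.0225 and an adjusted p of 0.0263 for each. For *Pmp2*, r was 0.33 (permutation p = 0.321, adjusted 0.321) and rho 0.15 (permutation p = 0.674, adjusted 0.674).

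Leaving out the 2 PNs farthest from the median of *Egr2*, 1203 and 1079, gave r between 0.68 and 0.80 for the 6 genes and 0.24 for *Pmp2*. Within the 6 fast-growing PNs r was 0.49 (*Mal*) to 0.84 (*Pmp22*), and 0.71 for *Pmp2*; with 5 slow-growing PNs, r was not computed in that class. The relations rest in part on single PNs. Without 1079 the 6 genes had r of 0.63 to 0.67 and without 1206 r of 0.60 to 0.70, and in neither case did any relation pass after adjustment (lowest adjusted permutation p 0.0577 and 0.0709). The value of *Pmp2* moved to 0.67 without 1079 and to -0.21 without 1203.

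**Figure D4:**
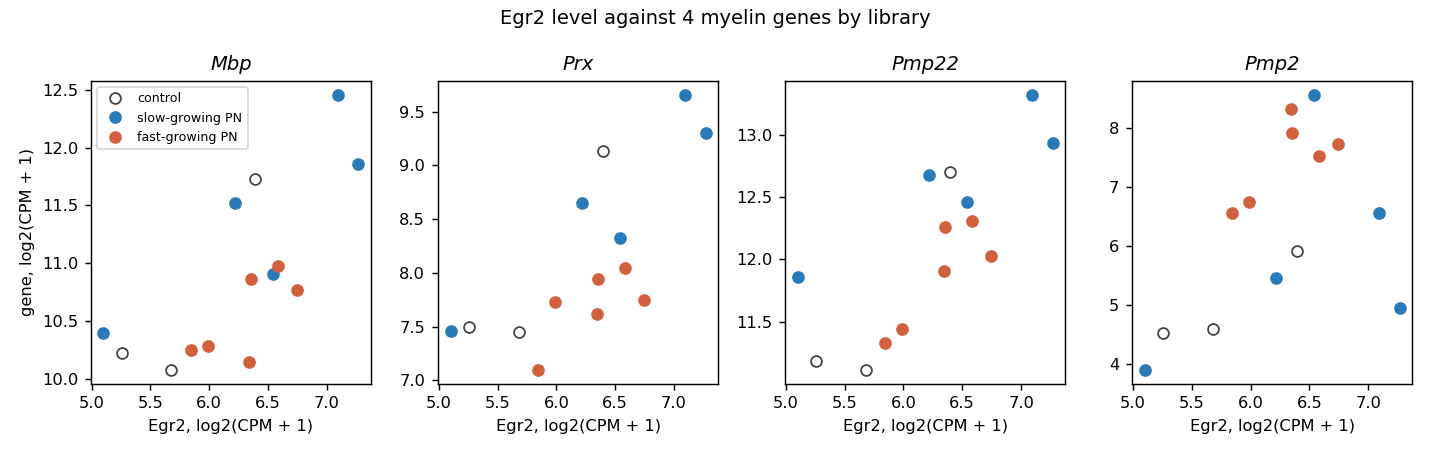
Log2(CPM + 1) of *Egr2* on the horizontal axis against *Mbp*, *Prx*, *Pmp22*, and *Pmp2*, 1 panel per gene, with 1 point per library and the 3 groups in different colors. The PNs run upward for *Mbp*, *Prx*, and *Pmp22* (r of 0.71 to 0.75), and scatter for *Pmp2* (r of 0.33).

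Other genes of the myelin sheath were examined from lists written with results of these data known. The 10 further genes of compact myelin and its lipids had a median log2 fold change of 0.37 in PNs versus controls, against 0.10 over all genes. None of the 10 fell, where 26.3% of all genes were called in either direction. Of 11 genes of the noncompact sheath, node, and surface, 5 rose and none fell, with a list median of 0.74, where 12.9% of all genes rose. Examples are *Gjc3*, a connexin (log2 fold change 2.54), *Gldn*, gliomedin of the node (2.26), *Lama2*, a laminin chain (1.86), and *Cadm4*, an adhesion molecule that binds the axon (1.47). With muscle and fat scores in the edgeR fit, which then called 3.33% of all genes, no gene of this list passed, and these 4 were at 1.80 (*Gjc3*), 0.84 (*Gldn*), 0.40 (*Lama2*), and 0.58 (*Cadm4*), with adjusted p values of 0.0670 to 0.707. Without control DRG4 or DRG5, 2 of the 11 passed, beside 14.9% and 12.5% of all genes, and without DRG3 8 did, beside 25.7%.

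Several regulators that act upstream of *Egr2* rose in PNs, and none passed once muscle and fat scores were in the fit. Of 11 receptors and upstream factors, 7 rose and none fell in PNs versus controls, where 12.9% of all genes rose, and the list median was 1.29. *Pou3f1* (Oct6) and *Pou3f2* (Brn2), POU factors of the promyelinating SC, had log2 fold changes of 2.55 (SE 0.61) and 2.27 (SE 0.40), with adjusted p values of 0.0071 and 9.7e-04 from edgeR. The neuregulin receptor genes *Erbb3* and *Erbb2* were at 2.15 (SE 0.45) and 1.51 (SE 0.37), with adjusted p values of 0.0031 and 0.0082 from edgeR. *Sox10*, also a pan-SC marker, was at 1.29 (SE 0.39, adjusted p = 0.0241, edgeR). With the muscle and fat scores the log2 fold changes were 1.45 (*Pou3f1*), 1.503 (*Pou3f2*), 0.95 (*Erbb3*), 0.53 (*Erbb2*), and 0.86 (*Sox10*), with adjusted p values of 0.176 to 0.540 from edgeR. Without control DRG4, 3 of the 11 passed, beside 14.9% of all genes, with *Erbb2* at 1.38 and *Sox10* at 1.06 among the calls lost. Without DRG5, 2 passed, beside 12.5% of all genes, with *Pou3f1* at 2.35, *Erbb2* at 1.28, and *Sox10* at 0.97 among those lost. Without DRG3, 6 passed, beside 25.7% of all genes, with *Erbb2* at 1.95 and *Sox10* at 2.05 among them. The summed SC markers given above were also higher in every PN than in every control, but *Sox10* and *Erbb3* are part of that sum. The part of SC number in the levels of these regulators was not tested.

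Of 9 inhibitory transcription factors and Notch genes, 1 rose, *Sox2*, which holds SCs in the immature state, with a log2 fold change of 2.53 (SE 0.75, adjusted p = 0.0224, edgeR). *Sox2* was at 0.77 with muscle and fat scores, 2.15 without DRG4, and 2.01 without DRG5, and passed in none of these fits (adjusted p = 0.656, 0.111, and 0.0926, edgeR). Without DRG3 it was at 4.53 and passed (adjusted p = 0.0019, edgeR). Its control levels were very low, at 2.94, 0.462, and 0.106 CPM in DRG3, DRG4, and DRG5. The value in DRG5 is below 3 counts (0.313 CPM), so the size of these fold changes is uncertain. The list median was -0.09, and 1 of 9 is near the 12.9% of all genes that rose. Of 7 other genes of demyelinating neuropathies, 1 rose, *Fgd4*, an exchange factor for Cdc42, by 0.52 (SE 0.18, adjusted p = 0.0456, edgeR). It passed in 4 of 22 alternative settings. Its log2 fold change was 0.53 without DRG3, 0.47 without DRG4, and 0.58 without DRG5, and 0.32 with muscle and fat scores. *Fgd4* passed in none of these fits. Of 9 markers of nonmyelinating and immature SCs, 6 rose and none fell, with a list median of 2.30, against the same 12.9%. With muscle and fat scores none of the 9 passed. Without DRG3, DRG4, or DRG5, 5, 4, and 4 of the 9 passed, beside 25.7%, 14.9%, and 12.5% of all genes.

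Against controls, the classes gave these counts for the same lists. In slow-growing PNs 1 of 11 noncompact genes rose (*Gjc3*), 1 of 11 upstream regulators (*Pou3f2*), and none of the 7 neuropathy genes, where 4.12% of all genes rose. Of 9 inhibitory factors, 2 fell: *Egr1* by 2.20 and *Jun* by 0.94 on the log2 scale, where 7.13% of all genes fell. These 2 genes were named after their values were seen. In fast-growing PNs the compact myelin list included *Gal3st1*, which rose, and *Cryab*, which fell, where 31.4% of all genes were called in either direction. In that class 5 of 11 noncompact genes and 7 of 11 upstream regulators rose, where 14.8% of all genes did. So did 2 of 9 inhibitory factors (*Sox2* and *Notch1*) and 2 of 7 neuropathy genes (*Litaf* and *Fgd4*).

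Fast- and slow-growing PNs differed in several of these genes, all named after their values were seen. Of the 10 compact myelin and lipid genes, 3 were lower in fast-growing PNs and none higher, where 0.466% of all genes were lower, and the list median was -1.06 against -0.03 over all genes. *Ncmap*, a noncompact myelin protein despite its list, was at 49.1 ± 15.6 CPM in fast-growing PNs (SD, n = 6) and 145 ± 68.2 in slow-growing PNs (SD, n = 5), a log2 difference of -1.56 (SE 0.33, adjusted p = 0.0488, edgeR). *Fa2h*, which hydroxylates myelin fatty acids, differed by -1.43 (SE 0.28, adjusted p = 0.0449, edgeR), and *Pllp*, plasmolipin, by -1.27 (SE 0.27, adjusted p = 0.0484, edgeR). *Drp2*, the dystrophin-related partner of periaxin, differed by -1.78 (SE 0.36, adjusted p = 0.0449, edgeR), beside the log2 difference of -1.15 of *Prx*.

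*Gldn* was higher in fast-growing PNs by 1.19 (SE 0.25, adjusted p = 0.0484, edgeR), *Egr3* by 1.68 (SE 0.34, adjusted p = 0.0449, edgeR), and *Gfap*, a marker of nonmyelinating SCs, by 2.47 (SE 0.37, adjusted p = 0.0317, edgeR). No upstream regulator or neuropathy gene passed in this comparison. All 7 calls lie close to the threshold in edgeR. DESeq2, which called 10.2% of all genes in this comparison, called all 7 (adjusted p 8.6e-08 to 0.0011, DESeq2). With muscle and fat scores in the edgeR fit none of the 7 passed (adjusted p 0.185 to 0.482). The log2 differences of *Fa2h* (-0.67), *Drp2* (-1.04), *Pllp* (-0.75), and *Ncmap* (-1.049) were smaller in size than without the scores. Those of *Egr3* (1.499) and *Gfap* (1.9995) were also smaller, while that of *Gldn* was larger, at 1.547. With limma voom the adjusted p was 0.0512 to 0.0569 for all but *Gfap* (0.0383), and with 1 of the 11 PNs left out each of these genes passed in only 3 or, for *Gfap*, 4 of 11 fits.

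**Figure D5:**
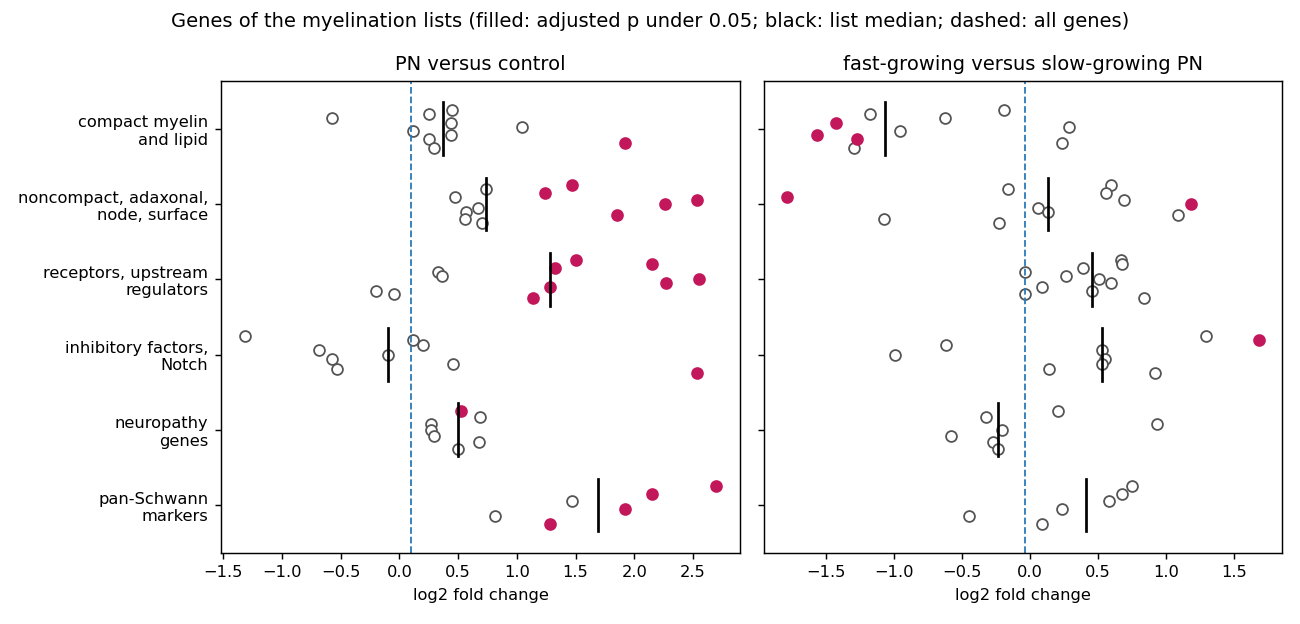
Log2 fold changes from edgeR for 5 myelination lists and the pan-SC markers in PNs versus controls and in fast- versus slow-growing PNs, 1 point per gene, filled at an adjusted p under 0.05, with black bars for list medians and a dashed line for the median of all tested genes. Upstream regulators lie mostly above 0 in PNs versus controls (7 of 11 passed), and compact myelin genes lie mostly below 0 in fast- versus slow-growing PNs (3 of 10 passed).

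Genes whose levels went most closely with the 8 were named by Pearson's r of log2(CPM + 1) over 14 libraries. For the mean profile of the 7 myelin genes these were *Sema5a* (r = 0.97), *Bcas1* (0.97), *Cers2* (0.97), *Shc4* (0.97), and *Limch1* (0.96). *Sema5a*, a semaphorin, averaged 231 CPM for controls, 439.6 for slow-growing PNs, and 251 for fast-growing PNs. *Cers2*, a ceramide synthase for very long chain lipids, averaged 146, 215, and 155 CPM. For *Egr2* the closest were *Syne2* (0.92), *Sh3tc2* (0.91), *Aspa* (0.91), *Nes* (0.91), and *Sema3b* (0.90). *Sh3tc2*, mutated in a recessive demyelinating neuropathy, averaged 12.5, 19.2, and 16.4 CPM in the 3 groups.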

How the data were processed

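Bulk RNA-seq of 14 libraries (3 control, 5 slow-growing PN, 6 fast-growing PN) was analysed. The 8 genes and the gene lists were chosen with earlier results of these data known. The authors prepared amplified libraries from total RNA (Ovation RNA-Seq System v2), and the submitters' processing notes name CASAVA 1.4, FastQC 0.11.0, TopHat2 2.0.9, featureCounts 1.5.2, edgeR 3.16.5, and mm10. The authors deposited whole-number counts per gene for 24062 genes, without normalization; their deposited log2 values were not used here. Strand setting, sex, and batch per library were not given in the sources used here, and 0 columns of counts were left unused.

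Groups came from the sample labels. Counts were fitted in R 4.3.3 with edgeR 4.0.16: filterByExpr, TMM factors, the quasi-likelihood test, and Benjamini-Hochberg adjustment over all tested genes, with only the libraries of a comparison in its fit and a threshold of 0.05. Levels are TMM-scaled CPM, and exact permutation tests used log2(CPM + 1). Correlations were tested with 100000 permutations. No 2 libraries of a group agreed within sampling noise. Depth, from 9596773 to 17594164 counts, makes 3 counts equal to 0.171 to 0.313 CPM, counting error only. Alternatives were RLE and upper quartile factors, DESeq2 1.42.0, limma 3.58.1 (voom), no filter, 1 fit of 3 groups, muscle and fat scores as covariates, a pseudocount of 0.1, and each library left out. Removing a trend on gene length and GC content from each library was chosen after seeing the data. The fits were tested on simulated data.

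All 8 genes, *Nf1*, and up to 4 genes per list (the largest fold changes that passed in PNs versus controls) were named, with the 5 genes most like *Egr2* and the 5 most like the mean myelin profile. Upstream sequences came from RefSeq (GRCm38.p6) and positions from GENCODE M21; 6 of 8 genes had an upstream window. Results of some list genes are not reported here.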

Additional observations from a re-analysis of the deposited data

Results flagged for a closer look

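None of the 8 genes had a library far from the rest of its group or a difference between growth classes called by edgeR; DESeq2 called 5 of them. The check covered 57 genes, these 8 among them, in 2 groups each. Of the 114 groups, 6 held a library far from the others, all for genes other than the 8, where chance marks about 1 in 20. *Sox2* was at 10.3 CPM in slow-growing PN 1198A, the library that also had the highest *Pmp2*. In fast-growing PN 1191, *Fgd4* was at 59.5 CPM, *Chl1* at 1218 CPM, and the sensory neuron channel gene *Scn10a* at 0.757 CPM. In fast-growing PN 1216, *Shc4* was at 75.8 CPM and *Syne2* at 230.3 CPM, each the lowest of its group.

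Fast- and slow-growing PNs differed by edgeR's quasi-likelihood test in 7 list genes, whose log2 differences were -1.56 for *Ncmap*, -1.27 for *Pllp*, -1.43 for *Fa2h*, -1.78 for *Drp2*, 1.19 for *Gldn*, 1.68 for *Egr3*, and 2.47 for *Gfap*.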

How the results depend on the processing

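Of 592 member fold changes under alternatives, 545 kept direction and side of the threshold, 30 reversed, 15 passed that had not, and 2 no longer passed; the causes were not tested. In PNs versus controls (0 of 8 called) DESeq2 called 1, *Pmp2*, and leaving out 1 library gave 0 to 1 (1 without 1203). In slow-growing PNs versus controls (0) the range was 0 to 1. In fast-growing PNs versus controls (1) the range was 1 to 3, and 1 fit of 3 groups and the muscle and fat covariates gave 0. In fast- versus slow-growing PNs (0) DESeq2 called 5 and the range was 0 to 4. Of 7 relations with *Egr2*, 6 passed, and 0 to 6 with 1 PN left out. Exact tests were unmoved by a pseudocount of 0.1.

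Reversals in PNs versus controls came from single libraries left out: *Prx* ranged from -0.18 to 0.89 and *Mbp* from -0.030 to 0.99. In fast-growing PNs versus controls, single libraries moved *Gjb1* from -0.36 to 0.96, *Mag* from -0.22 to 0.29, *Prx* from -0.83 to 0.18, *Mbp* from -0.58 to 0.36, *Pmp22* from -0.22 to 0.70, and *Mal* from -0.081 to 0.83. There *Gjb1* was also at 0.0065 with upper quartile factors, 0.18 with voom, 0.0081 with no filter, 0.018 in 1 fit of 3 groups, 0.33 with covariates, and 0.41 with the length and GC trend removed (chosen after seeing the data). *Mag* was at 0.0052 in 1 fit of 3 groups, 0.23 with covariates, and 0.028 with that trend removed, and *Prx* at 0.072 with covariates. With covariates, *Egr2* in fast- versus slow-growing PNs was at 0.15, *Gfap* in PNs versus controls at -0.53, and in fast-growing PNs versus controls *Cidea* was at 1.09 and *Ucp1* at 9.37. *Cidea* and *Ucp1* are fat markers, so a fit adjusted for a fat score is no test of them. The r of *Egr2* and *Pmp2* ranged from -0.21 to 0.67 with 1 PN left out.

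Of 64 results of named list genes, 61 no longer passed and 3 reversed with muscle and fat covariates. The 64 include markers of muscle and of fat, for which that fit is no test. Against controls that fit also cannot separate fat content from group, so a call lost there is no test of tissue makeup. Of 57 that use controls, 27 no longer passed without DRG5, 22 without DRG4, and 7 without DRG3; only 3 controls were measured. Depth was not the limit for the 8 genes: the lowest count, of *Gjb1*, was 43 reads. No paired analysis was possible because the groups share no replicate numbers.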

Other observations

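The genes closest to *Pmp2* over the 14 libraries, chosen after its separate course had been seen, were *Angptl2* (r = 0.94), *Lrp6* (0.94), *Dag1* (0.93), *Sdc4* (0.93), and *Kank4os* (0.93). *Dag1* encodes dystroglycan, the laminin receptor of the SC surface, and averaged 464 CPM for controls, 872 for slow-growing PNs, and 1284 for fast-growing PNs. *Sdc4*, a syndecan, averaged 114, 197, and 412 CPM, and *Angptl2*, a secreted angiopoietin-like protein, 59.0, 97.1, and 197 CPM. *Lrp6*, a Wnt coreceptor, had a smaller span of 191, 220.3, and 255 CPM. None of these 5 genes was among those closest to *Egr2* or to the mean profile of the 7 myelin genes.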
